A study of Rattus norvegicus with 4 samples.

Results

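The LGI ligands and their ADAM receptors were examined in cultures of Schwann cells (SCs) from the rat; SCs ensheathe and myelinate peripheral axons. The family was taken as 7 genes, the ligand genes Lgi1, Lgi2, Lgi3 and Lgi4 and the receptor genes Adam22, Adam23 and Adam11, and each was looked up by its symbol among the 17949 genes counted. Values were obtained for 6 of the 7, and Adam22 was not analysed here. Lgi3 was selected on its fold change in the comparison described below, so that difference is given as a description without a test. The other genes were included as known ligands and receptors of the family.

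LGI proteins are secreted and are built from leucine-rich repeats followed by EPTP repeats that fold into a propeller. They bind ADAM22, ADAM23 and ADAM11, members of the ADAM family of membrane proteins that have lost protease activity and act as receptors. In peripheral nerve, SCs secrete LGI4, which binds ADAM22 on the axon, and loss of either protein delays the step from axon sorting to myelination. In the brain, LGI1 with ADAM22 and ADAM23 organizes Kv1 potassium channels and AMPA receptors, and LGI1 mutations cause an inherited epilepsy.

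RNA-seq was available for 4 samples of primary rat sciatic nerve SCs. The 2 Lenti-AS samples were infected with a lentivirus that expresses the Egr2-AS, the antisense RNA of the Egr2 promoter, and the 2 Lenti-GFP samples with a control lentivirus expressing GFP. Infection was for 48 h at 2 infectious units per cell. All SCs grew in medium with 10% serum, 4 µM forskolin, which raises cAMP, and heregulin-β1, an ErbB ligand, at 5 ng/ml. Since the Egr2-AS vector has DsRed-Express2 in its backbone and the control has AcGFP1, the reporter cannot be told apart from the Egr2-AS between the groups. The samples of a group were prepared as biological replicates by the methods, without stating whether these were separate animals or cultures, so p-values measure the spread between these samples. Total counts per sample ranged from 74024323 to 96185890.

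The Lenti-AS libraries differed more from one another than the Lenti-GFP libraries did, with 188 against 9 of the 10251 genes of at least 1 CPM (counts scaled to library size with TMM factors) over 2-fold apart. Globin genes were high in Lenti-AS 2 alone, with 3000.9 CPM summed over the 5 tested against 3.09 to 6.61 CPM in the other samples. Of 10 SC markers tested, summed levels were 7456 and 7480 CPM in Lenti-GFP and 9385 and 8198 CPM in Lenti-AS. S100b and Erbb3 lay between 448 CPM, for Erbb3 in Lenti-GFP 2, and 2357 CPM, for S100b in Lenti-AS 1, while Gap43 had at most 25 counts in any sample. In bulk RNA, fewer cells of a type and less RNA per cell cannot be told apart.

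The groups were compared with the quasi-likelihood test of edgeR, and a gene was called at an adjusted p under 0.05 (Benjamini-Hochberg over the 12446 genes tested) with a fitted fold change of at least 1.3. By this rule 1.31% of the genes tested were called higher and 0.667% lower in Lenti-AS (163 and 83 genes), 1.98% in all. These totals rested on which libraries were used: 0 and 1 gene were called without Lenti-GFP 1, 0 and 1 without Lenti-GFP 2, 570 and 271 without Lenti-AS 1, and 1266 and 253 without Lenti-AS 2. At an unadjusted p under 0.05 these fits held 1231, 941, 3993 and 4305 genes, in the same order. In each such fit the lone sample of a group was taken to vary like the others. All 6 family genes had at least 36 counts in every sample and were tested, so none passed the low-count filter only through the group in which it was higher.

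Among the ligands, Lgi4 stayed within the spread of the samples, Lgi2 and Lgi3 had higher fitted levels in Lenti-AS, and Lgi1 had a lower one. Among the receptors, Adam11 had a higher fitted level and Adam23 a slightly lower one. Of the 5 genes other than Lgi3, 0 were called by edgeR in either direction. An unadjusted p under 0.05 was reached by 1 of the 5, Adam11, and by 21.8% of all genes tested (12.5% higher and 9.37% lower). Adam11 was called by DESeq2, which called 3.92% of genes higher and 1.12% lower (5.04% in all). By limma-voom 0 of the 5 were called, against 1.21% of all genes higher and 0.675% lower (1.89% in all). The median log2 fold change of the 5 genes was 0.08, against 0.01 for all genes tested. In 2 of them (Lgi2 and Adam11) both Lenti-AS samples lay above both Lenti-GFP samples, and in 2 (Lgi1 and Adam23) they lay below. Groups that do not overlap were found in 27.7% of all genes tested in the first direction and in 27.2% in the second, so 4 of 5 stood beside 54.9% over all genes.

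**Figure D1:**
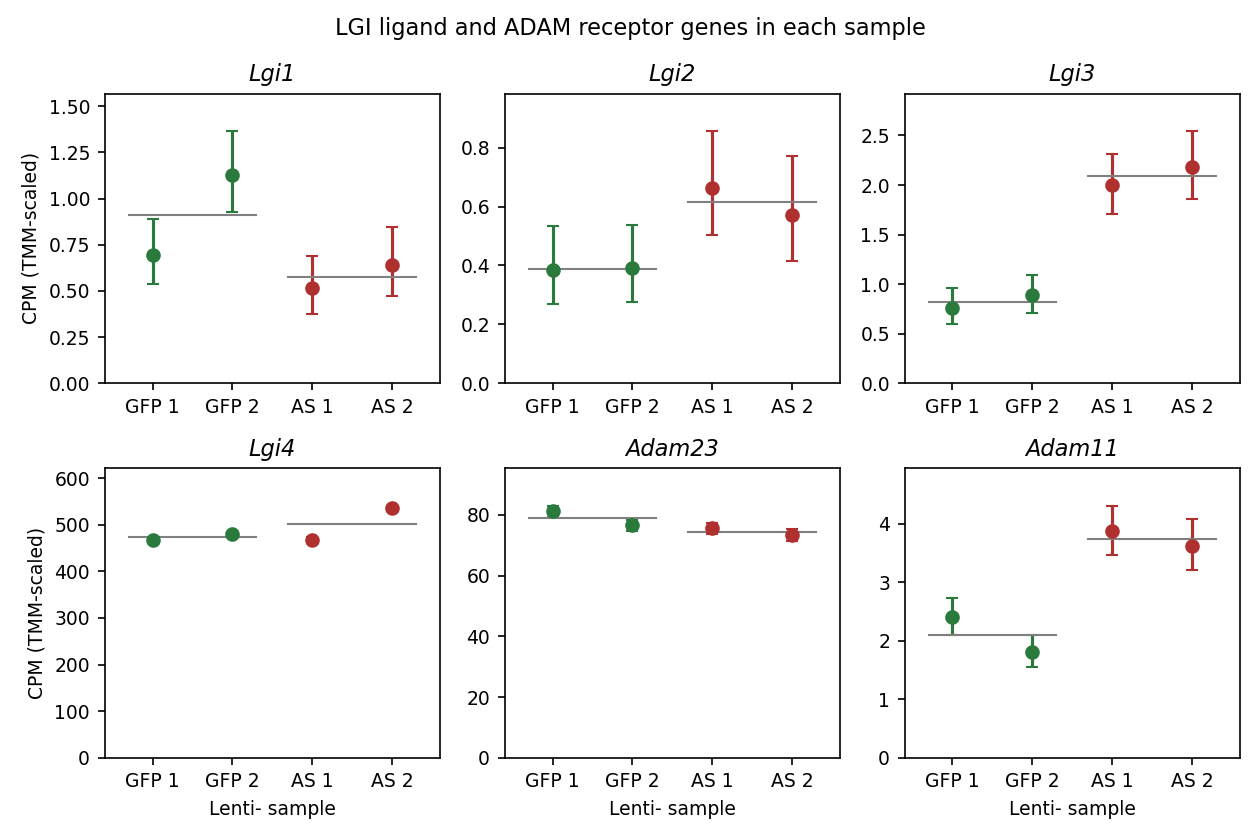
CPM of the 6 family genes in each of the 4 samples, with linear axes that start at 0; points are samples, bars are exact Poisson 95% intervals of the count and grey lines are group means. The Lenti-AS samples of Lgi3 lie at 2.00 and 2.18 CPM, above the Lenti-GFP samples at 0.760 and 0.886 CPM, while the groups overlap for Lgi4.

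Lgi4, the ligand that SCs are known to secrete for myelination, was counted 43644 and 45414 times in the Lenti-GFP samples and 41049 and 40236 times in the Lenti-AS samples. Scaled to depth, these were 467.5 and 479.1 CPM in Lenti-GFP and 468.3 and 535.2 CPM in Lenti-AS. The groups overlapped, since Lenti-AS 1 fell between the Lenti-GFP samples and only Lenti-AS 2 was higher. The group values were 473 ± 8.21 CPM (SD, n = 2) and 502 ± 47.3 CPM (SD, n = 2), a log2 fold change of 0.08 with a 95% interval from -0.10 to 0.27 (edgeR adjusted p = 0.545). That interval corresponds to folds between 0.933 and 1.20. Without Lenti-AS 2 the log2 fold change was -0.02. Without Lenti-AS 1 it was 0.18 (edgeR adjusted p = 0.0408), below the 1.3-fold needed for a call, so the sign of the small difference rested on Lenti-AS 2. Lgi4 overlaps its neighbour Fxyd3 at one end in the GRCr8 annotation, and since the strand setting of the counting is not given, reads in the overlap may belong to either gene.

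Lgi3, which encodes a ligand described in neurons, oligodendrocytes, fat and skin, was counted 71 and 84 times in Lenti-GFP and 175 and 164 times in Lenti-AS. Its levels were 0.760 and 0.886 CPM in Lenti-GFP and 2.00 and 2.18 CPM in Lenti-AS. The Lenti-AS pair was high and the Lenti-GFP pair low, which is how the gene was chosen. The exact Poisson 95% intervals of the counts hold counting error alone. They ended at 1.10 CPM in Lenti-GFP 2 and began at 1.71 CPM in Lenti-AS 1. The Lenti-GFP mean was 0.823 ± 0.0888 CPM and the Lenti-AS mean 2.09 ± 0.131 CPM (SD, n = 2 each). The fitted difference was 1.34 on the log2 scale with a standard error of 0.22, a fold of 2.53. Since these values chose the gene, they are given without a test.

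A ratio taken within each sample does not depend on how the libraries were scaled. Per 1000 counts of Lgi4, Lgi3 had 1.63 and 1.85 counts in the Lenti-GFP samples and 4.26 and 4.08 counts in the Lenti-AS samples. The exact binomial 95% intervals of the Lenti-GFP ratios reached at most 2.29, and those of the Lenti-AS ratios began at 3.47 or above. Relative to Lgi4, Lgi3 was thus higher in each Lenti-AS sample, in the contrast that chose the gene. These intervals cover counting error only, and since the same counts chose the gene, their separation is not a test.

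Lgi2, a ligand whose loss causes a juvenile epilepsy in dogs, was counted 36 and 37 times in Lenti-GFP and 58 and 43 times in Lenti-AS. The levels were 0.386 and 0.390 CPM in Lenti-GFP and 0.662 and 0.572 CPM in Lenti-AS. The Lenti-AS samples were higher, but the counting intervals overlapped, from 0.275 to 0.538 CPM in Lenti-GFP 2 and from 0.414 to 0.770 CPM in Lenti-AS 2. Its log2 fold change of 0.67 had a 95% interval from -0.07 to 1.41 and did not pass the test (edgeR adjusted p = 0.259).

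Lgi1, the ligand of the brain synapse, was the member with the widest spread between replicates. It was counted 65 and 107 times in Lenti-GFP and 45 and 48 times in Lenti-AS, or 0.696 and 1.13 CPM in Lenti-GFP and 0.513 and 0.638 CPM in Lenti-AS. The Lenti-AS pair was lower, but Lenti-GFP 1 lay close to Lenti-AS 2. The Lenti-GFP samples differed 1.62-fold (exact 95% interval 1.18 to 2.24), which is more than counting error, against 1.24-fold (0.811 to 1.91) for the Lenti-AS samples. Lgi1 had a log2 fold change of -0.67 with a 95% interval from -1.51 to 0.17 (edgeR adjusted p = 0.312). It was -0.27 without Lenti-GFP 2 and -0.97 without Lenti-GFP 1. DESeq2 gave no adjusted p for Lgi1 or Lgi2, because its filter on low means removed them.

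**Figure D2:**
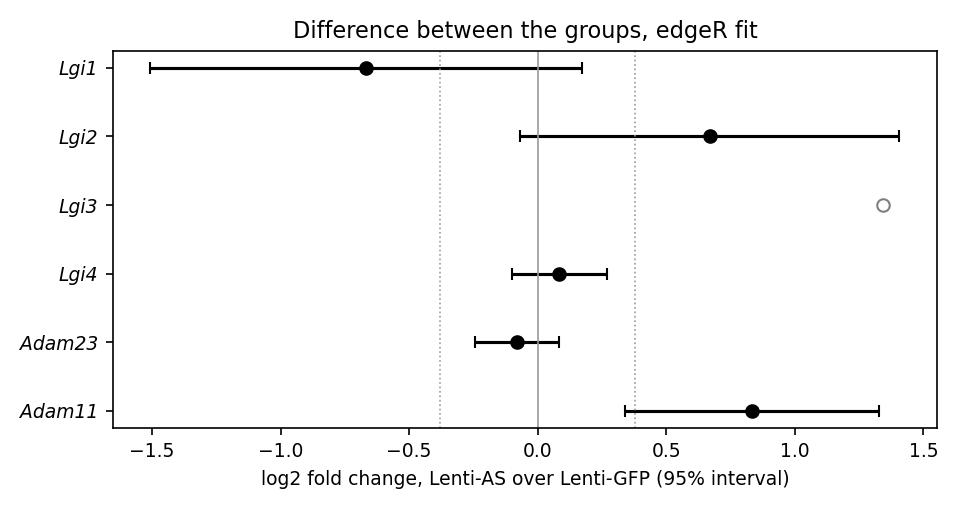
Log2 fold change of each family gene in the edgeR fit, Lenti-AS over Lenti-GFP, with 95% intervals; dotted lines mark a 1.3-fold change, and the open grey symbol without an interval is Lgi3, which was chosen for this difference. The intervals of Lgi1, Lgi2, Lgi4 and Adam23 hold 0, and that of Adam11 runs from 0.34 to 1.33.

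Adam23, a receptor for LGI1 and LGI3 that in neurons takes part in cell adhesion and Kv1 channel placement, was counted 7570 and 7253 times in Lenti-GFP and 6625 and 5516 times in Lenti-AS. The levels were 81.1 and 76.5 CPM in Lenti-GFP and 75.6 and 73.4 CPM in Lenti-AS. The Lenti-AS samples were the lower ones, with less between the nearest samples of the groups than between the Lenti-GFP samples. The group values of 78.8 ± 3.23 CPM and 74.5 ± 1.56 CPM (SD, n = 2 each) gave a log2 fold change of -0.08 with a 95% interval from -0.24 to 0.08 (edgeR adjusted p = 0.510). Folds below 0.844 or above 1.06 lay outside this interval.

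Adam11, a receptor that in the cerebellum places Kv1 channels at inhibitory terminals, was counted 224 and 171 times in Lenti-GFP and 339 and 272 times in Lenti-AS. The levels were 2.40 and 1.80 CPM in Lenti-GFP and 3.87 and 3.62 CPM in Lenti-AS. The groups did not overlap, and neither did the counting intervals, which ended at 2.73 CPM in Lenti-GFP 1 and began at 3.20 CPM in Lenti-AS 2. Those intervals hold counting error alone, and the Lenti-GFP samples differed by more than that. Lenti-GFP 2 had 0.752 times the CPM of Lenti-GFP 1 (exact 95% interval 0.613 to 0.922). The group values were 2.10 ± 0.421 CPM and 3.74 ± 0.176 CPM (SD, n = 2 each), a log2 fold change of 0.83 (standard error 0.20) and a fold of 1.78 with a 95% interval from 1.26 to 2.51. The gene missed the threshold by edgeR (unadjusted p = 0.00626, adjusted p = 0.10 over all genes tested). It passed it by DESeq2 (log2 fold change 0.83, adjusted p = 0.0208) and by the likelihood ratio test (adjusted p = 0.0224), and over all 10 tests, scalings, filters and designs other than leaving out samples the adjusted p ranged from 0.0208 to 0.139. The adjusted p was 0.00992 without Lenti-AS 1 and 0.00196 without Lenti-AS 2, against 0.370 without Lenti-GFP 1 and 0.668 without Lenti-GFP 2. Per 1000 counts of Adam23, Adam11 had 29.6 and 23.6 counts in Lenti-GFP and 51.2 and 49.3 counts in Lenti-AS. The binomial 95% intervals of these ratios, which also hold counting error alone, reached 33.8 in Lenti-GFP and began at 43.5 in Lenti-AS.

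The family genes did not share the largest differences between the Lenti-AS libraries. The CPM ratio of Lenti-AS 1 to Lenti-AS 2 ran from 0.804, for Lgi1, to 1.16, for Lgi2, over the 6 genes. Lgi1, Lgi4, Adam23 and Adam11 differed between the Lenti-GFP samples by more than counting error, and between the Lenti-AS samples only Lgi4 did, at 1.14-fold (exact 95% interval 1.13 to 1.16). For comparison, Lenti-AS 1 had 2.66 times the CPM of Lenti-AS 2 for Sox10. Transcript lengths were not used here, so the expression levels of different family genes were not compared.

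**Figure D3:**
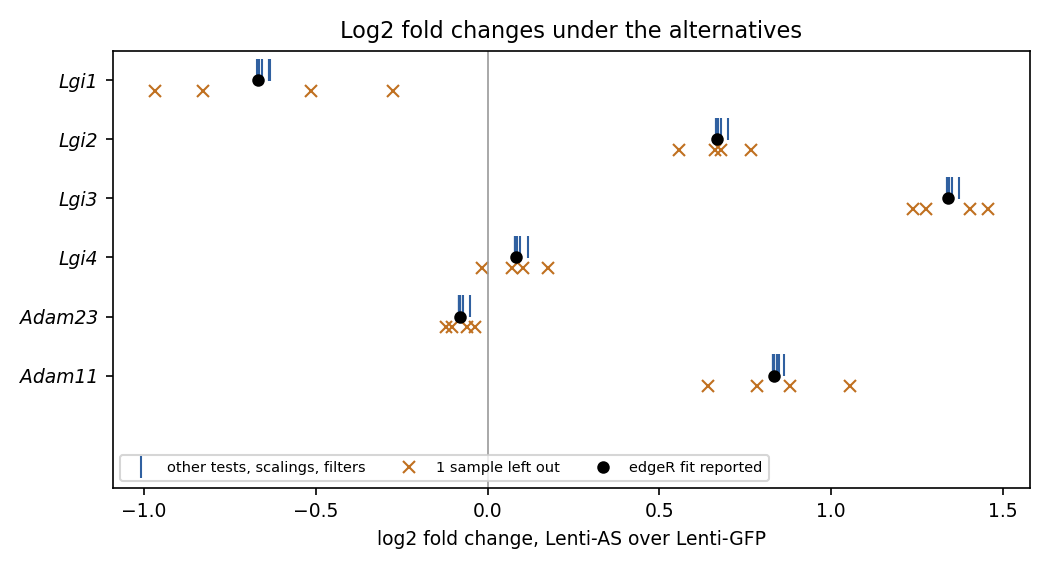
Log2 fold change of each family gene under every alternative; black points are the edgeR fit reported, blue ticks 10 other tests, scalings, filters and designs, and orange crosses the fits without 1 sample. The ticks stay near the point for each gene, while the crosses spread from -0.97 to -0.27 for Lgi1 and fall on either side of 0 for Lgi4.

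The partners of the LGI-ADAM complex were taken from hand-written lists and described by counts and medians. Kv1 channels, which LGI-ADAM complexes gather on axons, and the MAGUK scaffold proteins that bind them gave 16 tested genes of 20 counted. By edgeR 0 of these were called higher and 1 lower, against 1.31% and 0.667% of all genes tested. The median log2 fold change was 0.09. At an unadjusted p under 0.05 there were 3 higher and 2 lower, against 12.5% and 9.37% of all genes tested. DESeq2 called 0 higher and 2 lower, against 3.92% and 1.12% of all genes tested, and limma-voom 0 and 1, against 1.21% and 0.675%. The called gene was Mpp6, a membrane scaffold of the MAGUK family, at 70.5 and 69.7 CPM in Lenti-GFP and 49.6 and 53.9 CPM in Lenti-AS (log2 fold change -0.44, edgeR adjusted p = 0.0499). It was not called by edgeR with library totals in place of TMM. Of the others, Lin7c, Dlg1 and Mpp5 had the highest CPM, with log2 fold changes of -0.15, 0.11 and -0.10. Among the channel subunit genes, named after their values were seen, Kcna1, Kcna2 and Kcna3 had at most 6 counts in any sample and were not tested, and Kcna4 and Kcna6 had between 14 and 113 counts. Without either Lenti-GFP library 0 genes of this list were called lower. Without either Lenti-AS library 2 were called lower, and without Lenti-AS 2 a further 3 were called higher.

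AMPA receptor subunits and their auxiliary TARPs, the synaptic partners of LGI1, gave 6 tested genes of 12 counted, with a median log2 fold change of 0.33. None was called by edgeR or limma-voom in either direction, and DESeq2 called 1 higher, against 3.92% of all genes tested. At an unadjusted p under 0.05 there were 2 higher and 1 lower, against 12.5% and 9.37% of all genes tested. Gria2, Gria1 and Gria3 encode receptor subunits and had log2 fold changes of 0.01, -0.22 and 0.38, and Gria3, at 19.33 and 22.02 CPM in Lenti-GFP and 26.6 and 27.3 CPM in Lenti-AS, missed the threshold by edgeR (adjusted p = 0.0845) and passed it by DESeq2 (adjusted p = 0.0124). Without Lenti-AS 1 the list held 1 gene called higher, and without Lenti-AS 2 it held 2.

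14-3-3 proteins, which bind the cytoplasmic tail of ADAM22, gave 6 tested genes, with a median log2 fold change of 0.06. None was called by edgeR, DESeq2 or limma-voom. At an unadjusted p under 0.05 there were 1 higher and 1 lower gene, against 12.5% and 9.37% of all genes tested. Ywhaz, Ywhaq and Ywhae had log2 fold changes of -0.10, -0.17 and 0.18. Without Lenti-AS 2 the list held 1 gene called higher.

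The Nogo receptor complex, through which LGI1 has been described to relieve the block of axon growth by myelin, gave 8 tested genes with a median log2 fold change of 0.22. By edgeR and limma-voom none was called. At an unadjusted p under 0.05 there were 4 higher and 1 lower, against 12.5% and 9.37% of all genes tested. DESeq2 called 0 higher and 1 lower, against 3.92% and 1.12%. Rtn4, which encodes Nogo, had 419 and 404 CPM in Lenti-GFP and 479 and 506 CPM in Lenti-AS (edgeR adjusted p = 0.0813), and the co-receptor gene Ngfr 509 and 462 CPM against 648 and 576 CPM (edgeR adjusted p = 0.10). Tnfrsf19, a further co-receptor gene, was at 76.3 and 79.5 CPM in Lenti-GFP and 57.3 and 62.0 CPM in Lenti-AS (edgeR adjusted p = 0.0628; DESeq2 adjusted p = 0.000155). The receptor gene Rtn4r had 15 to 55 counts per sample. Without Lenti-AS 1 the list held 1 gene called higher, and without Lenti-AS 2 it held 2 higher and 1 lower.

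Of 16 other ADAM genes counted, 7 were tested, and their median log2 fold change was 0.05. None was called by edgeR, DESeq2 or limma-voom. An unadjusted p under 0.05 was reached by 1 higher and 1 lower gene, against 12.5% and 9.37% of all genes tested. Adam17, Adam10 and Adam9, the widely expressed proteases that shed membrane proteins, had log2 fold changes of -0.06, 0.13 and -0.18. The log2 fold changes of this list ran from -0.18 to 0.52, and the 0.83 of Adam11 lay above that range. That difference was not tested. Adam15 was higher in Lenti-AS 1 alone, at 9.24 CPM against 4.34 to 5.19 CPM in the other samples, and without Lenti-AS 2 the list held 1 gene called higher. The other EPTP repeat genes Tspear and Adgrv1 were not analysed here.

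LGI4 and ADAM22 act in the step from immature to myelinating SCs, so the genes of that step were set beside them. Of 23 promyelinating and myelin genes tested, 4 were called higher and 1 lower by edgeR, against 1.31% and 0.667% of all genes tested. Their median log2 fold change was 0.12. At an unadjusted p under 0.05 there were 8 higher and 3 lower, against 12.5% and 9.37% of all genes tested. DESeq2 and limma-voom each called 4 higher and 1 lower. Over all genes tested the shares were 3.92% and 1.12% by DESeq2, and 1.21% and 0.675% by limma-voom. Pou3f1, the transcription factor of the promyelinating stage, was at 69.2 and 65.6 CPM in Lenti-GFP and 101 and 89.2 CPM in Lenti-AS (log2 fold change 0.50, edgeR adjusted p = 0.0481). The myelin genes Mal, Gjb1 and Mbp rose by 0.63, 0.68 and 0.47 on the log2 scale (edgeR adjusted p = 0.0191, 0.0218 and 0.0428). Gldn, which encodes the nodal organizer gliomedin, fell from 174 and 168 CPM in Lenti-GFP to 86.8 and 89.2 CPM in Lenti-AS (log2 fold change -0.96, edgeR adjusted p = 0.00795). Cnp and Pmp22, among the list's most counted genes, had log2 fold changes of 0.06 and -0.17 and were not called. Sox10 was high in Lenti-AS 1 alone, at 163 CPM there against at most 77.1 CPM in the other samples. Without Lenti-GFP 1 or Lenti-GFP 2 no gene of this list was called in either direction, without Lenti-AS 1 the number called lower was 2, and without Lenti-AS 2 the number called higher was 8.

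Egr2 itself was at 49.2 and 42.1 CPM in Lenti-GFP and 61.2 and 54.0 CPM in Lenti-AS (log2 fold change 0.33, edgeR adjusted p = 0.152), and with the strand setting unknown its reads cannot be told apart from those of an antisense transcript. Of 16 immature and repair SC genes tested, 0 were called higher and 1 lower by edgeR, against 1.31% and 0.667% of all genes tested. Their median log2 fold change was 0.08. An unadjusted p under 0.05 was reached by 5 higher and 2 lower, against 12.5% and 9.37% of all genes tested. DESeq2 called 2 higher and 1 lower, against 3.92% and 1.12% of all genes tested, and limma-voom called none. The gene called lower was Btc, an ErbB ligand, at 37.8 and 37.9 CPM in Lenti-GFP and 29.6 and 27.7 CPM in Lenti-AS (log2 fold change -0.40, edgeR adjusted p = 0.0499). It was not called by edgeR with library totals in place of TMM, nor with the globin genes left out. Jun, Ncam1 and Sox2 had log2 fold changes of -0.28, 0.24 and 0.12. Without either Lenti-GFP library Btc was not called, and without Lenti-AS 1 and Lenti-AS 2 in turn 1 and 3 genes were called higher.

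**Figure D4:**
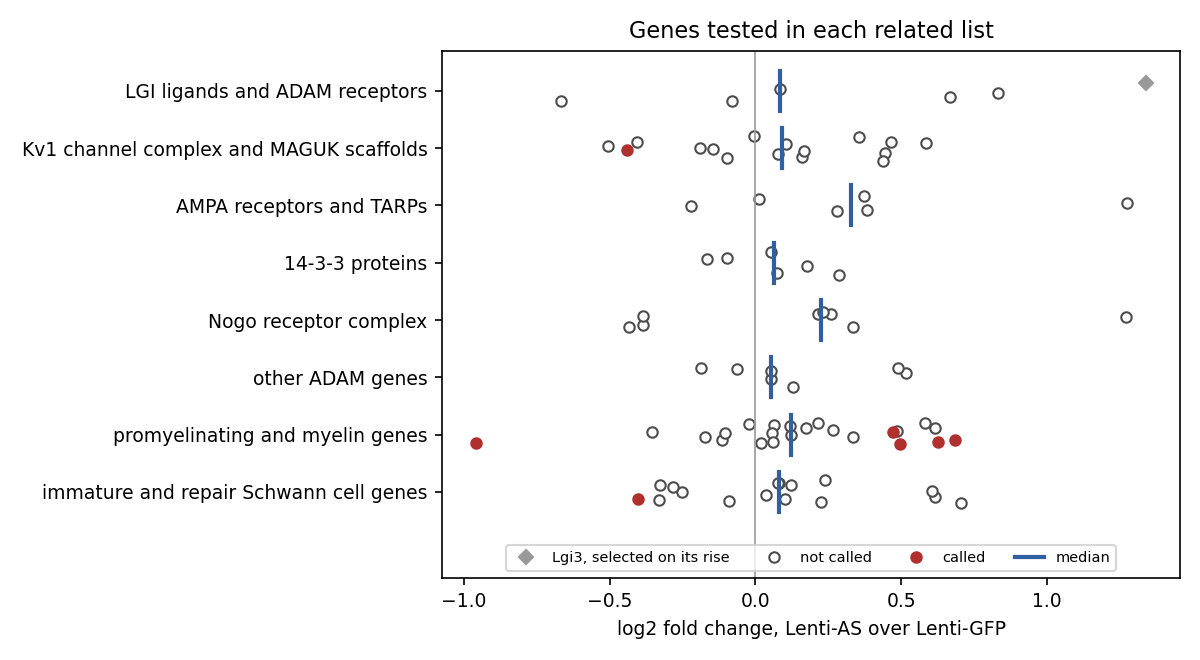
Log2 fold change, Lenti-AS over Lenti-GFP, of each gene tested in the family and in 7 related lists; filled red points were called by edgeR, open points were not, and blue bars are medians; the grey diamond is Lgi3, chosen for its rise and left out of the family's median. The other 5 family genes have their median at 0.08 and none called, while called genes of the related lists lie among the promyelinating and myelin genes (5), the Kv1 and scaffold genes (1) and the immature and repair genes (1).

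The position of the family genes was not used to choose them. For each of the 6 genes, the 2 nearest counted genes on each side were taken from the RefSeq order of the GRCr8 assembly, which differs from the assembly used for counting, and 22 of these 24 neighbours were tested. None was called by edgeR or limma-voom, while 8 had an unadjusted p under 0.05, which 21.8% of all genes tested reached. DESeq2 called 2 neighbours higher and 1 lower, against 3.92% and 1.12% of all genes tested. The 2 higher genes, not called by edgeR, flank Lgi3 on one side, and an effect of position was not tested. Reep4, which encodes an endoplasmic reticulum protein of mitosis, was at 7.19 and 7.02 CPM in Lenti-GFP and 9.12 and 10.8 CPM in Lenti-AS (difference of 0.49 ± 0.13 SE on the log2 scale; edgeR adjusted p = 0.113, DESeq2 adjusted p = 0.0300). Hr, which encodes a nuclear receptor corepressor, was at 10.6 and 8.66 CPM in Lenti-GFP and 19.9 and 11.7 CPM in Lenti-AS (difference of 0.72 ± 0.25 SE on the log2 scale; edgeR adjusted p = 0.179, DESeq2 adjusted p = 0.0315), with most of its difference in Lenti-AS 1. On the other side of Lgi3, Sftpc had 15 to 32 counts per sample and overlapping groups, and Bmp1 had a log2 fold change of 0.02. Next to Lgi4, the ion transport regulator gene Fxyd1 was at 23.6 and 24.7 CPM in Lenti-GFP and 18.2 and 18.5 CPM in Lenti-AS (log2 fold change -0.40; edgeR adjusted p = 0.0543, DESeq2 adjusted p = 0.00275), while Fxyd3, which overlaps Lgi4, had a log2 fold change of 0.07. The neighbours of Adam11 that were tested, Fzd2, Ccdc43 and Gjc1, had log2 fold changes of -0.15, -0.10 and -0.25, opposite in sign to that of Adam11.

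**Figure D5:**
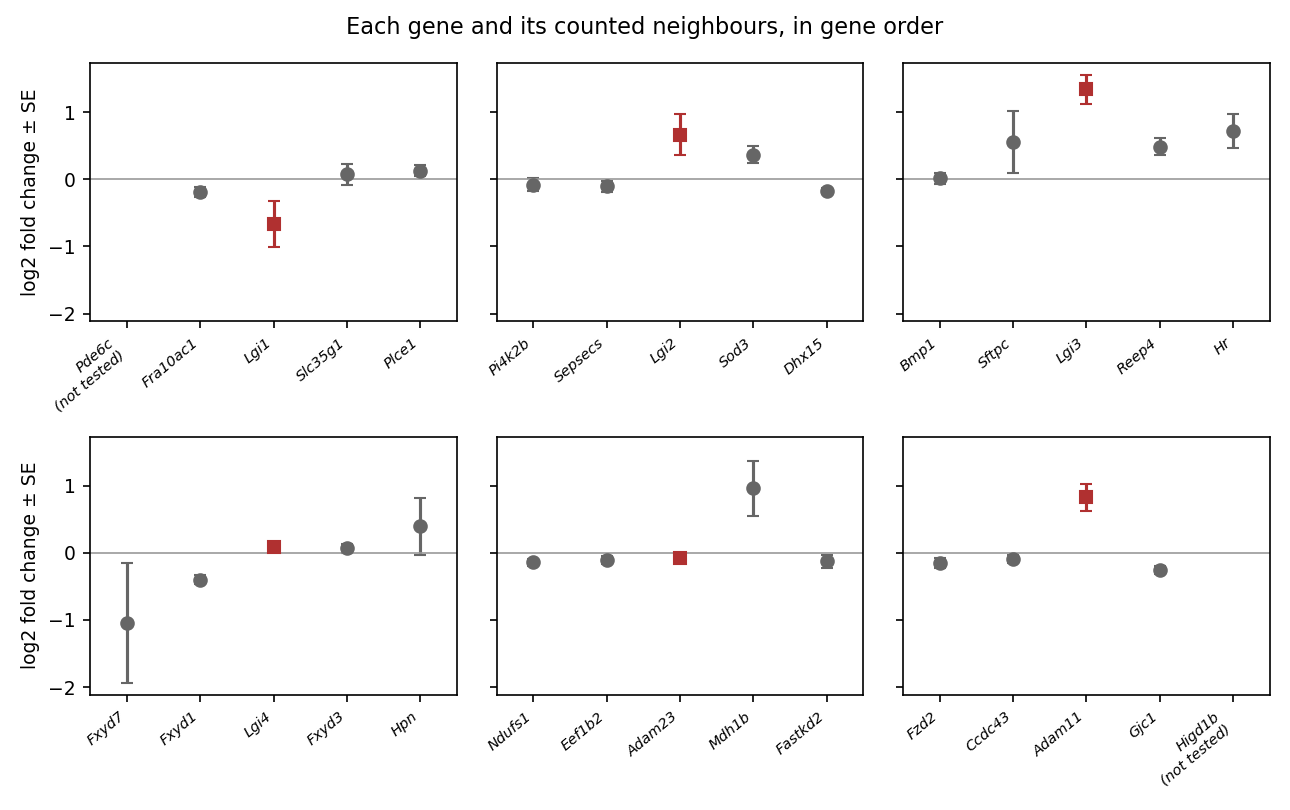
Log2 fold change ± SE, Lenti-AS over Lenti-GFP, of each family gene (red square) and of its 2 counted neighbours on each side (grey points) in gene order; untested neighbours have no point. Reep4 and Hr beside Lgi3 lie above 0 at 0.49 and 0.72, and the tested neighbours of Adam11 lie below 0.

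The genes whose pattern over the 4 samples was most like that of a family gene were listed for Lgi3, Lgi4, Adam11 and Adam23, the most often counted of the ligand and of the receptor genes, without regard to length. Likeness was the Euclidean distance between log2(CPM + 0.5) values centred on each gene's own mean. The added 0.5 CPM shrinks differences of genes at low CPM, so genes near in distance can differ in log2 fold change. For Lgi3 the nearest genes were Thbs4, Astn1, Axin2, Gpnmb and Clic6, at distances from 0.0767 to 0.127, and 7 genes lay within 0.2. Gpnmb, the most counted of these, was at 99.6 and 101 CPM in Lenti-GFP and 183 and 194 CPM in Lenti-AS. Its log2 fold change was 0.91, against 1.34 for Lgi3. For Adam11 they were Fam222a, Ankrd13d, Dyrk3, Npy and Zscan25, at 0.0253 to 0.114, with 34 genes within 0.2. Lgi4 and Adam23 differed little between samples, and 3633 and 5378 genes lay within the same distance of them. Their nearest genes were Dpagt1, Lsm4, LOC317456, Bckdk and Usp42 for Lgi4, and Atp6v0b, Mir3554, Rtn2, Bloc1s4 and Rasef for Adam23. Mir3554 was at only 0.133 to 0.193 CPM, with a log2 fold change of -0.31 against -0.08 for Adam23. With 4 samples these distances describe the libraries and carry no test.

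Several family genes are best known from neurons, so markers of other cell types were read beside them. Of 10 neuron markers, 6 were tested, and their summed level was 300 and 314 CPM in Lenti-GFP and 236 and 243 CPM in Lenti-AS. The sum was lower in Lenti-AS. Most of the sum came from the neurofilament genes Nefl, which was called lower (log2 fold change -0.46, edgeR adjusted p = 0.0303), and Nefm, and from Tubb3. The neuron markers Snap25, Rbfox3, Isl1 and Stmn2 had at most 9 counts in any sample and were not tested. Elavl3, Elavl4 and Syn1 were tested, at 7 to 57 counts per sample, with log2 fold changes of -0.29, -0.78 and 0.19. Of 8 fibroblast markers, 3 were tested, and their sum moved with Col1a1, at 2131 CPM in Lenti-AS 1 and 290 CPM in Lenti-AS 2 against 840 and 721 CPM in Lenti-GFP, while Dcn, Lum, Dpt, Thy1 and Tcf21 had at most 3 counts. Summed macrophage markers (2 of 8 tested) lay between 3.10 and 3.16 CPM in Lenti-GFP and 3.78 and 4.07 CPM in Lenti-AS, with Ptprc at no more than 10 counts and Aif1 at no more than 3. Summed endothelial markers (4 of 6 tested) lay at 20.8 and 20.6 CPM in Lenti-GFP and at 15.9 and 15.3 CPM in Lenti-AS, nearly all of it Tek, with Cdh5 at no more than 5 counts. The part of these markers in the levels of the family genes was not tested.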

How the data were processed

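RNA-seq counts of 4 samples of rat SCs were analysed. The authors sequenced 50 bp paired-end reads, aligned them to rn6 with hisat2 by the paper's methods (the submitters' processing notes name GSNAP), and ran featureCounts on RefSeq exons; the deposited values are raw counts per gene. Versions, strand setting and treatment of reads with several matches are not given in the sources used here. A row repeating the header was dropped.

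The test, edgeR 4.0.16 in R 4.3.3 (TMM, glmQLFit, glmQLFTest, no covariate), took genes that reached 10 counts in 2 samples or more. Standard errors were computed from F statistics, and intervals use the fit's degrees of freedom. With 2 against 2 samples the smallest two-sided p of a permutation test is 0.333, so none was run. Alternatives were DESeq2 1.42.0, limma-voom (limma 3.58.1), a likelihood ratio test, other scalings and filters, a replicate block, leaving out samples, and leaving out globin genes. The procedure was tested on simulated counts with the same spread in both groups, which leave out the larger differences between the Lenti-AS libraries. The named genes are the family, called members and the 3 most counted others of each list, neighbours, nearest patterns, cell markers, Egr2 and Jun; some of these are not reported here. Family and lists were chosen with earlier results of these data known. Promoter and protein sequences were not used here.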

Additional observations from a re-analysis of the deposited data

How the results depend on the processing

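The counts of genes called, 163 higher and 83 lower, moved to 488 and 139 with DESeq2, 374 and 147 with the likelihood ratio test and 3 and 14 with a replicate block. Leaving out 1 sample gave 0 to 1266 higher and 1 to 271 lower. With the block, the 4 higher calls among promyelinating and myelin genes and the lower calls of Mpp6 and Btc fell to 0. The calls of Mpp6 and Btc were also lost with library totals, and that of Btc with the globin genes left out. Lgi3, described without a test, had a log2 fold change of 1.34 with the block and of 1.24 to 1.46 with 1 sample left out. Its call status under these settings is not given, since its rise in this contrast chose the gene. Adam11 passed the threshold under DESeq2 (log2 fold change 0.83), the likelihood ratio test (0.83) and without either Lenti-AS sample, with values between 0.64 and 1.06 over the samples left out. Lgi4 changed sign without Lenti-AS replicate 2 (-0.0152), in a range from -0.0152 to 0.18. Leaving out samples gave -0.97 to -0.27 for Lgi1, 0.56 to 0.77 for Lgi2 and -0.12 to -0.04 for Adam23. The causes were not tested. Across genes, the deviations of samples with the same replicate number had a correlation of -0.012, so the numbers were not taken as pairs, and the replicate block uses up a residual degree of freedom. Library totals in place of TMM moved the median log2 fold change of all genes to 0.04. Of the other values recomputed, 169 were kept and 39 moved, nearly all of them small counts of list genes.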
